A study of Mus musculus with 24 samples.

Results

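Chromatin accessibility in mouse blood stem and progenitor cells was examined at 8 genes whose products sense foreign or displaced nucleic acids or act with such sensors: Ddx58, Ifih1, Mavs, Eif2ak2, Adar, Tlr3, Tlr7 and Tlr9. They were taken as a named list, out of 21938 protein-coding genes of the annotation (GENCODE release M 21, mm10). Every peak and every listed site within a gene or 50 kb of it was assigned to that gene, whichever gene it lay in.

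Cells sense nucleic acids in the cytosol and in endosomes. In the cytosol, RIG-I (encoded by Ddx58) and MDA5 (encoded by Ifih1) bind viral RNA and signal through the adaptor Mavs on mitochondria towards type I interferon. The kinase PKR (encoded by Eif2ak2) stops translation when it meets double-stranded RNA, and Adar edits such RNA so that a cell's own transcripts do not set off MDA5. In endosomes, Tlr3 binds double-stranded RNA, Tlr7 single-stranded RNA and Tlr9 DNA with unmethylated CpG. The RNA sensors are found in most cell types and interferon induces several of them, whereas Tlr7 and Tlr9 are best known from dendritic cells, B cells and myeloid cells.

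ATAC-seq, in which the transposase Tn5 cuts and tags open DNA, was carried out on 24 libraries in 11 groups of cells sorted from bone marrow of C57BL/6 mice. All groups, controls included, carried Cre on 1 allele (Cre +/-), and Daxx-WT mice were Daxx +/+, Daxx-KO mice Daxx F/F and double-knockout (DKO) mice Daxx F/F Pu.1 F/F, where F is a floxed allele that Cre deletes. Daxx is a chaperone of histone H3.3, and Pu.1 (encoded by Spi1) is a transcription factor of blood cells. Long-term haematopoietic stem cells (LT-HSCs), CMPs (common myeloid progenitors) and GMPs (granulocyte-monocyte progenitors) without a time in their label had 2 libraries per genotype. By the study's methods they came from Rosa26CreERT2 mice, in which tamoxifen activates Cre in all tissues, 3 weeks after treatment. A separate set of LT-HSCs was taken 3 days after induction (3dpi), with 3 Daxx-KO and 2 Daxx-WT libraries. KLS cells (c-Kit+ Lin- Sca-1+, a mixture of stem and multipotent progenitor cells) were taken 3 weeks after induction, with 2 Daxx-WT libraries, 3 of Daxx-KO and 2 of DKO. By the methods, 3dpi samples came from Rosa26CreERT2 mice as well, whereas the DKO was made in Mx1Cre mice, in which interferon switches Cre on, and induced with pI:pC. The methods also name Mx1Cre for KLS cells sorted at the same time for RNA-seq, and state no line for the Daxx-WT and Daxx-KO KLS libraries of ATAC-seq. As pI:pC is a synthetic double-stranded RNA that Tlr3 and MDA5 recognise, its part in the KLS values below was not tested. The labels give both 3dpi controls as Daxx +/+, while a legend of the study lists 1 of them as Daxx +/F, so that control may carry 1 floxed allele. Ages of the mice are not given in the labels. The study describes the LT-HSC, CMP and GMP libraries as independent samples, but the labels do not tie libraries to mice, so p-values measure the spread between libraries.

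The promoters that carried motifs of interferon signalling or of Pu.1, and the Tlr3 promoter, which is described below in most detail, are shown first. Each runs 5′ to 3′ from 250 bases before to 50 bases after a RefSeq start (GRCm38.p6), and 7 of the 8 genes had such a sequence. Capitals mark matches on either strand to the interferon response core GAAANNGAA, to the composite core of ETS and IRF factors GGAANNGAA or to the Pu.1 sequence GAGGAAGT (ACTTCCTC on the other strand); matches may overlap.
Ddx58, chr4:40239776-40240075, minus strand: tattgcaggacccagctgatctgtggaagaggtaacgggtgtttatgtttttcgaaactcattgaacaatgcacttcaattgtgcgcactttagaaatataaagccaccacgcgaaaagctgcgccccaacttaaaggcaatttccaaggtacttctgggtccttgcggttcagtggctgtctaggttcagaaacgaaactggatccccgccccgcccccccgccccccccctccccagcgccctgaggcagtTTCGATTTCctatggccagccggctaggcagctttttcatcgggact
Ifih1, chr2:62646206-62646505, minus strand: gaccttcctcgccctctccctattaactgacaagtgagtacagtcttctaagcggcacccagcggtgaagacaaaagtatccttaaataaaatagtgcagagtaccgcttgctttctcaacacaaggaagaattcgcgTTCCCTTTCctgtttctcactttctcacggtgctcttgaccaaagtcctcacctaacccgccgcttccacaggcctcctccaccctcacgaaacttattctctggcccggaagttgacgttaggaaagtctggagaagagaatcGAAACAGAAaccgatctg
Eif2ak2, chr17:78882523-78882822, minus strand: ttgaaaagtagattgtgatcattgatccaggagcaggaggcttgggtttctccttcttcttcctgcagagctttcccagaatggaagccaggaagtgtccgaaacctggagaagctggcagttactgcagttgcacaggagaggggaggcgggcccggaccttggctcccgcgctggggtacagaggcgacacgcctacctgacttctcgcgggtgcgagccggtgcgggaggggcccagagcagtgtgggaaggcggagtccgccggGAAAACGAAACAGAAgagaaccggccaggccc
Adar, internal start, chr3:89730468-89730767, plus strand: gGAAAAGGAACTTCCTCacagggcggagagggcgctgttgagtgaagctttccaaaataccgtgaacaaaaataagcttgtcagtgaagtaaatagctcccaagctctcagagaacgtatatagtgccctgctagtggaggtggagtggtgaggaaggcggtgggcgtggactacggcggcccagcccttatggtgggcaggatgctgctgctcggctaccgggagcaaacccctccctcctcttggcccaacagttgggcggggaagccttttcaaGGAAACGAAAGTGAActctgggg
Tlr3, chr8:45410331-45410630, minus strand: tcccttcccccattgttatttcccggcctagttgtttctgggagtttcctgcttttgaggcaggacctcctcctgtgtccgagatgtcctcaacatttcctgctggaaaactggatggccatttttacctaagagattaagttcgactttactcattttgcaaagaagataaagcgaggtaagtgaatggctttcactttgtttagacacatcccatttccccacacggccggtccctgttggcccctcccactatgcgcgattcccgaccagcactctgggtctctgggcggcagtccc
Tlr9, chr9:106222348-106222647, plus strand: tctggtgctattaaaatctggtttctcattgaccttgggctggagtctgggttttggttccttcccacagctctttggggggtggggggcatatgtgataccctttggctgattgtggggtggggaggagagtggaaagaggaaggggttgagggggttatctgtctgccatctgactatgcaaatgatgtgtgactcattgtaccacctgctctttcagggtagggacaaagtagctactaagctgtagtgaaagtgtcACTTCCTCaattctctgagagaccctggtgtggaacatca

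The interferon response core was present in the promoters of Ddx58 (1 match), Ifih1 (2), Eif2ak2 (2) and Adar (2 at the internal start), that is 4 of the 7 genes with a sequence. These genes had 9 promoter sequences in all. The other Adar sequences, at or near its first start, held no match and are not printed. Over 32851 RefSeq promoters of the same length the share with a match was 8.56%. The composite core occurred at the internal start of Adar alone among the members, against 8.24% of all promoters, and the Pu.1 sequence occurred there and in Tlr9, against 3.2%. The sequences of Mavs and Tlr3 held no match to any of the 3 in this window. Tlr7 had no sequence in the table. A match is a stretch of letters and was not tested for binding.

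The 11 peak lists, 1 per group, ran from 22156 peaks (DKO) to 70455 peaks (Daxx-KO LT-HSCs), so a list carries no spread between libraries. The 3 tables of sites gave scaled reads per library at 600 bp windows that differed, and depth was 4.21 to 16.0 reads per window. Deletion was visible at Daxx: in KLS cells the site from 33909601 to 33912700 of chromosome 17 had 54.56, 90.1 and 61.15 scaled reads in Daxx-KO against 255.43 and 294.59 in Daxx-WT. In DKO cells a Spi1 coding-exon site had 2.12 and 4.68 scaled reads against 31.06 and 58.13, whereas 5 other listed Spi1 sites were higher. Of 7 stem and progenitor markers, 6 or 7 had a promoter peak in each list but the DKO list, which held 4. Of 9 markers of other blood cells, 6 (Cd3e, Cd4, Ms4a1, Ncr1, Hba-a1 and Ly6g) had none in any list. Among myeloid progenitor markers, Elane had a promoter peak in the 2 GMP lists alone. The others were spread more widely, with Mpo in 8 lists, Cebpe in 7 and Csf1r in 3.

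The genes of cytosolic sensing had a promoter peak in every list at its full length, and the endosomal receptors did not. A promoter peak, one that overlaps 1000 bp either side of an annotated start, was present in all 11 lists for Ddx58, Ifih1, Mavs, Eif2ak2 and Adar. Tlr3 had one in 10 lists, Tlr9 in 6 and Tlr7 in 3. Per list, 6 to 8 of the 8 genes had a promoter peak: 7 and 6 in Daxx-WT and Daxx-KO LT-HSCs, 8 and 7 in CMPs, 8 and 7 in GMPs, 6 and 6 in 3dpi LT-HSCs, and 6, 7 and 6 in Daxx-WT, Daxx-KO and DKO KLS cells. Over all protein-coding genes the share was, in the same order, 67.8% and 68.9% in LT-HSCs, 65% and 61.7% in CMPs, 62.9% and 60.4% in GMPs, 62.3% and 64.5% in 3dpi LT-HSCs, and 58.7%, 62% and 51.1% in KLS cells. In each list 5 of these promoters belonged to the cytosolic genes. Lists reduced to equal length, described below for Tlr3, no longer held the Ddx58 peak in Daxx-KO KLS cells. With 8 genes a share is coarse, and no test of it was made.

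Peaks in the surroundings varied with the length of the list. Within 50 kb of the 8 genes lay 69 and 68 peaks in Daxx-WT and Daxx-KO LT-HSCs, 75 and 62 in CMPs, 80 and 63 in GMPs, 44 and 51 in 3dpi LT-HSCs, 45 and 53 in Daxx-WT and Daxx-KO KLS cells, and 28 in DKO cells. The median gene of the 8 had 9.5 peaks in Daxx-WT LT-HSCs, against 7.0 for all protein-coding genes, and 3.5 against 2.0 in DKO cells. Tlr9 stood at the high end, with 7 to 15 peaks, in a stretch that also holds Alas1, Twf2 and Ppm1m. Tlr7 stood at the low end, with 0 to 10.

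**Figure D1:**
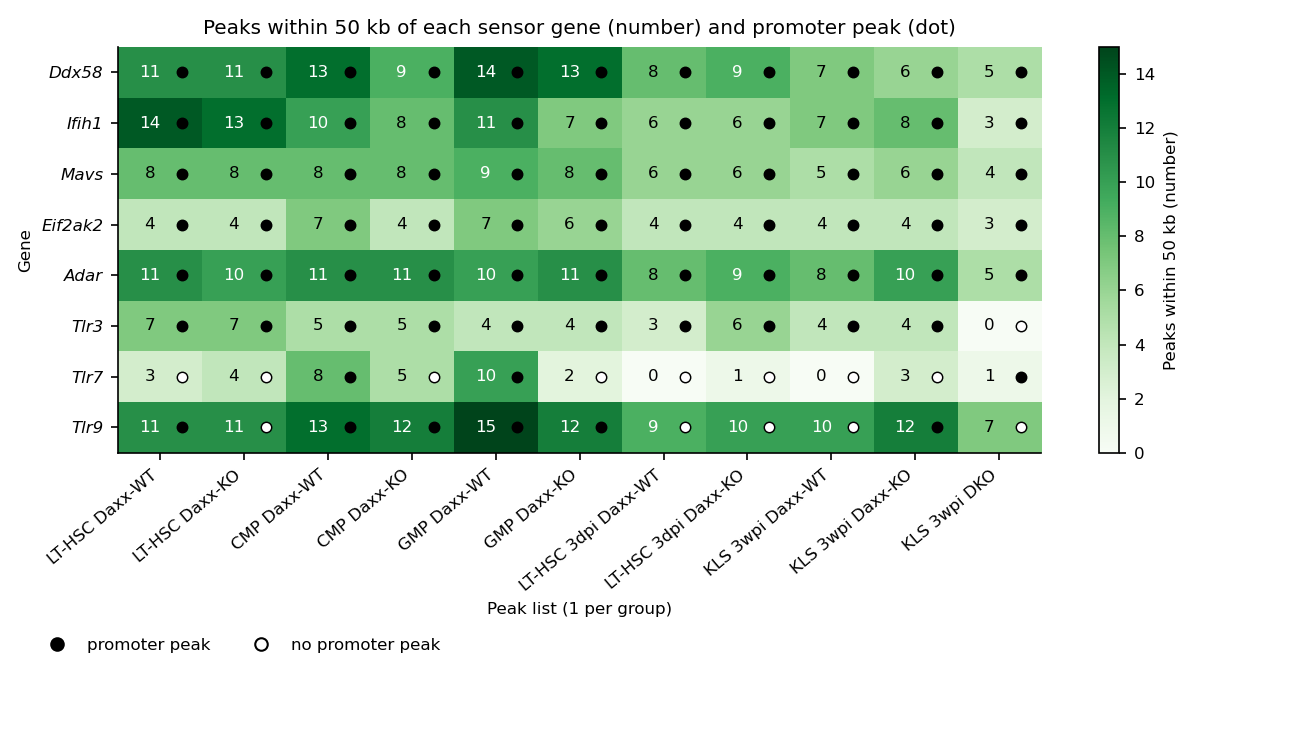
Peaks within 50 kb of each of the 8 genes (number and colour) in each of the 11 lists (columns); a filled dot marks a promoter peak and an open dot none. The 5 cytosolic genes are filled in every column, Tlr3 is at 0 in the DKO column, and the Tlr7 row reaches 8 and 10 peaks in Daxx-WT CMPs and GMPs.

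Mavs, the adaptor, had the highest percentile of the 8 genes in all 5 lists with values of peak strength. Its peak (chr2:131233419-131234633 in Daxx-WT LT-HSCs) was 833 to 1215 bp wide. The fold enrichment that the authors' peak caller gave in the 5 lists with such values was 9.17 to 16.6. Among promoter peaks of the same list, this put Mavs at percentiles from 95.4 to 99.8. The 4 CMP and GMP lists held an additional peak of 522 to 569 bp just inside the gene, centred 1076 to 1105 bp from the first start.

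Eif2ak2, which encodes PKR, had a promoter peak at its first start of 1211 to 1774 bp, a fold enrichment of 6.69 to 11.8 and percentiles of 60.3 to 84.8. Its lowest percentile was in DKO cells and its highest in Daxx-WT KLS cells. The RNA sensor Ifih1 had a peak of 1198 to 1556 bp with 5.81 to 9.59 fold enrichment, at percentiles from 39.2 to 62.3. A weaker peak at a start inside Ifih1, of 355 to 745 bp, was held by 4 lists, Daxx-WT and Daxx-KO of both LT-HSCs without a time and KLS cells. Ddx58 had a peak of 937 to 2061 bp with 4.83 to 7.74 fold enrichment, at percentiles from 27.7 to 46.0. Its narrowest form, in Daxx-WT KLS cells, was centred 120 bp upstream of the first start, whereas the Daxx-KO peak (1865 bp) and the DKO peak (1591 bp) reached further into the gene and were centred 228 and 400 bp downstream of it. The interferon response cores printed above lay in promoters that a peak overlapped in all 11 lists.

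Adar was open at separate starts. The peak at its first start was 1001 to 1615 bp wide and of modest strength, with 3.87 to 8.06 fold enrichment at percentiles from 13.7 in DKO to 46.8 in Daxx-KO 3dpi LT-HSCs. The peak at the internal start, which carries both interferon response cores, was present in all 11 lists and was stronger in each of the 5, with 8.13 to 11.7 fold enrichment at percentiles from 68.1 to 87.5. In DKO cells the 2 peaks stood at 3.87 and 8.27. A list holds 1 value per peak, so these orders have no error.

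**Figure D2:**
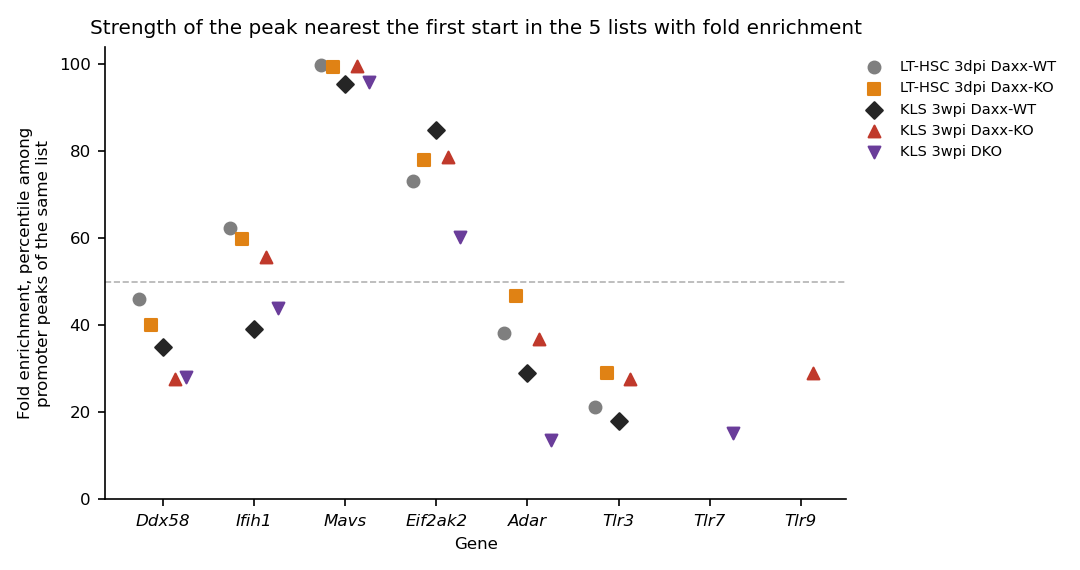
Percentile of the fold enrichment of the peak nearest the first start (vertical axis) for each gene, among promoter peaks of the same list, in the 5 lists with fold enrichment (symbols); the dashed line is the middle of a list. Mavs lies at 95.4 or above in all 5, Tlr3 between 17.9 and 28.9 in 4, and Tlr7 and Tlr9 have 1 point each.

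The Tlr3 promoter peak lay at the 5′ end of the gene and was 682 bp (Daxx-WT GMPs) to 1505 bp (Daxx-KO LT-HSCs) wide. It was among the weaker promoter peaks, with fold enrichments of 5.18, 6.05, 4.56 and 5.65 in Daxx-WT and Daxx-KO 3dpi LT-HSCs and Daxx-WT and Daxx-KO KLS cells. It was missing in DKO cells, as were all other peaks within 50 kb of Tlr3. The DKO list is the shortest, and in the other 4 scored lists the Tlr3 peak had the ranks 24335, 23891, 24717 and 27123 by fold enrichment, all beyond the 22156 places of the DKO list. When the 5 scored lists were reduced to 22156 peaks each, an alternative chosen after the data were seen, Tlr3 had a promoter peak in none of them. Of the cytosolic genes, Ddx58 alone lost a promoter peak in this way, in Daxx-KO KLS cells, where its rank was 27130. The read numbers at Tlr3, which do not depend on peak calling, are given below. Among 26 genes of the wider pathway, Irf5, Aim2 and Oas1a had promoter peaks in the same 10 lists as Tlr3.

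Tlr9 had a promoter peak in Daxx-WT LT-HSCs, in both genotypes of CMPs and GMPs, and in Daxx-KO KLS cells. It was 812 to 1499 bp wide and widest in Daxx-WT CMPs. In Daxx-KO KLS cells it had 5.76 fold enrichment at percentile 29.1, and Daxx-WT KLS cells had no peak there. The Daxx-KO KLS list is longer than the Daxx-WT list (44694 against 33325 peaks) and rests on 3 libraries against 2, and the reduced list of Daxx-KO KLS cells no longer held the peak.

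Tlr7 had no promoter peak in 8 of the 11 lists, although 8 lists held a peak somewhere in the gene. Its promoter peak was 248 bp in Daxx-WT CMPs, 350 bp in Daxx-WT GMPs and 289 bp in DKO KLS cells, where it had 3.99 fold enrichment at percentile 15.2. Of 13 regions with a peak within 50 kb of Tlr7, 7 were held by CMP or GMP lists alone, and 0 by all 11 lists. The count of peaks was 8 and 5 in Daxx-WT and Daxx-KO CMPs and 10 and 2 in GMPs. Of the 10 Daxx-WT GMP peaks, 2 were overlapped in Daxx-KO, the lowest share of the 8 genes in GMPs, against 72.4% of all Daxx-WT GMP peaks. The Daxx-KO GMP list is the shorter (49677 against 65306 peaks). No listed table covers CMPs or GMPs, so this rests on 1 list per group. Marker promoters moved little between these GMP lists, with 4 of 4 myeloid progenitor markers in each.

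When peaks of all lists were merged, 97 regions resulted, of which 22 were in all 11 lists and 11 in every list but DKO. Of the Daxx-WT peaks near the 8 genes, 65 of 69 (94.2%) were overlapped in Daxx-KO LT-HSCs, 59 of 75 (78.7%) in CMPs, 62 of 80 (77.5%) in GMPs, 43 of 44 (97.7%) in 3dpi LT-HSCs and 42 of 45 (93.3%) in KLS cells. Over all peaks of the same lists the shares were 93.2%, 71.5%, 72.4%, 91.3% and 91.9%. Whether the members differ from all peaks was not tested. In DKO cells, 25 of 45 (55.6%) were overlapped, against 51.6% of all.

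DKO cells held 3 peaks near the members without a Daxx-WT KLS peak: in the 3′ UTR of Ddx58 (chr4:40205333-40205905), in an intron of Gca upstream of Ifih1 (chr2:62672605-62673450) and at the Tlr7 promoter. All 3 overlapped peaks of CMPs or GMPs and of no LT-HSC or other KLS list. Of 4742 DKO peaks without a Daxx-WT KLS peak in the genome, 77.0% overlapped CMP or GMP peaks, and 37.9% overlapped these alone. Among 4 myeloid progenitor markers, 1 had a promoter peak in each of the Daxx-WT and DKO KLS lists, Mpo in Daxx-WT and Cebpe in DKO. The part of the cell mixture in these peaks was not tested.

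The tables of sites give reads per library. Each lists windows that the authors' caller kept as different on the same libraries, so the sites had to differ, and the limma test used here (adjusted over all windows tested, 0.05) describes their size against the spread and is no independent support. A smaller share of cells with an open site and less opening in each cell cannot be told apart in bulk data. Scaling each library to its mean reads per window, in place of the authors' scaling, shifted the median log2 difference of all listed sites by 0.33 in LT-HSCs, by 0.47 for Daxx-KO KLS cells and by -0.67 for DKO cells. Values under that scaling are given beside the first ones where they matter.

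In 3dpi LT-HSCs 7 sites were listed near 4 of the sensor genes, of which 3 were higher and 4 lower in Daxx-KO. None of them passed the limma test (0 of 7), as for the whole table (0% higher and 0% lower of 11927 sites), although 7 of 7 had an unadjusted p under 0.05 (96% of all listed sites) and 5 passed with a variance trend (45% of all). Their libraries did not overlap in 7 of 7, as in 99.5% of all listed sites. A higher site lay near 2 of the 8 genes and a lower site near 3, against 25.8% and 44.4% of all genes. Within 1000 bp of a start of its own gene lay 1 site, near Mavs, against 3% (higher) and 4.3% (lower) of all genes.

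That site, at chr2:131242551-131243700 in a coding exon of Mavs, had 68.82, 76.36 and 72.84 scaled reads in Daxx-KO, where the controls had 27.04 and 28.13. The 3 Daxx-KO libraries lay close together and well above both controls. The log2 difference was 1.36 ± 0.21 (SE, n = 3 and 2; limma adjusted p = 0.3), or 1.70 when scaled to the mean window. No list had a peak there. At the neighbouring gene Ap5s1, a site that overlapped peaks of both genotypes in part was higher, with 77.08, 82.08 and 81.28 scaled reads against 40.57 and 52.52. Another Ap5s1 site outside peaks was lower, with 19.27, 18.13 and 28.5 against 40.57 and 54.39. A site near Ddx58, in an intron of Topors, was higher at 35.79, 38.18 and 29.56 against 14.65 and 17.82. The remaining 3 sites, near Eif2ak2 and Tlr9, were lower, with log2 differences from -1.32 to -1.01, and none overlapped a peak of 3dpi LT-HSCs. Ifih1, Adar, Tlr3 and Tlr7 had no listed site in these cells.

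In KLS cells the sites listed in Daxx-KO were mostly lower, near 7 of the genes, with higher ones at Tlr3 and Tlr7 and near Ifih1. Of 23 sites, 5 (21.7%) were higher and 18 lower, where 19.1% of all listed sites were higher. None passed the limma test (0 of 23; 0% higher and 0% lower of all 17311), 23 of 23 had an unadjusted p under 0.05 (96.8% of all), 0 passed with a variance trend (3.43% of all), and 9 passed with a pseudocount of 5 in place of 1 (25.2% of all). The libraries did not overlap in 23 of 23, as in 99.6% of all sites. Higher sites lay near 3 genes and lower sites near 7 of the 8, against 21.1% and 62.1% of all genes. A site within 1000 bp of its own gene's start was found for Tlr3 alone, against 1.98% (higher) and 8.71% (lower) of all genes.

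The direction followed the peaks. The 3 sites that overlapped a KLS peak of either genotype by 1 bp or more (near Ifih1, Tlr3 and Tlr7) were higher. Of 20 sites outside such peaks, 18 were lower. Over the table, 61.0% of sites that overlapped such a peak and 8.6% of those outside were higher. All 5 higher sites, and 2 of 18 lower sites, overlapped a peak of at least 1 of the 11 lists, against 81% and 25.6% in the whole table.

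At Tlr3, the site chr8:45409351-45409950, in an intron at the downstream edge of the promoter peak, had 27.84, 20.12 and 23.52 scaled reads in Daxx-KO, while the controls had 7.3 and 9.17. All 3 Daxx-KO libraries exceeded both controls by more than the spread within either group. The log2 difference was 1.42 ± 0.30 (SE, n = 3 and 2; limma adjusted p = 0.28), or 1.88 when scaled to the mean window. The promoter peak was 1170 bp wide in Daxx-KO and 1139 bp in Daxx-WT and extended further downstream in Daxx-KO. The other 2 Tlr3 sites lay 29970 and 41595 bp upstream, outside peaks, and were lower, with 10.02, 1.75 and 4.7 against 21.89 and 20.63 scaled reads at the nearer one.

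Tlr7 had 3 sites, all higher. The site in its intron, chrX:167315401-167316000, had 25.61, 55.11 and 31.04 scaled reads in Daxx-KO against 10.95 and 13.76 in Daxx-WT. The second Daxx-KO library was the highest by a wide margin. The log2 difference was 1.45 ± 0.38 (SE, n = 3 and 2; limma adjusted p = 0.28). It overlapped a peak of all 4 CMP and GMP lists and of no LT-HSC or KLS list. The other 2 lay in introns of the neighbour Prps2, with 52.33, 52.49 and 66.79 against 29.19 and 28.66, and 60.13, 60.36 and 74.32 against 31.93 and 30.95 scaled reads. Tlr7 is on the X chromosome, where 30.5% of 154 listed sites were higher against 19.1% of all. The X share was 77.6% of 107 sites in 3dpi LT-HSCs (29.1% of all sites) and 28.5% of 421 in DKO (72.1% of all). The sex of the mice behind each library is not given in the sources used here, and its part was not tested.

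The other genes had mostly lower sites outside peaks. Ddx58 had 3, Mavs 4, Adar 4, Ifih1 3, Eif2ak2 1 and Tlr9 1, with log2 differences from -1.52 to -1.0. A site in a coding exon of Adar, for example, had 7.79, 5.25 and 6.58 scaled reads against 20.07 and 20.63. The 1 higher site of Ifih1 was far upstream at Gca, with 65.69, 64.73 and 75.26 against 37.4 and 47.0. The 18 lower sites had group means of 5.49 to 19.4 scaled reads in Daxx-KO, so they rest on few reads.

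DKO cells had the most sites. Near the 8 genes 59 were listed, 42 higher and 17 lower in DKO, with 71.2% higher against 72.1% in the whole table. The limma test was passed by 41 higher and 11 lower sites (52 of 59), while 67.3% of all 50928 sites passed as higher and 14.9% as lower. The libraries did not overlap in 59 of 59, as in 100% of all sites. Higher sites lay near 7 genes and lower sites near 5, against 72.2% and 58.5% of all genes. Within 1000 bp of a start of the own gene lay 5 sites, 2 at Tlr3 and 1 each at Ddx58, Ifih1 and Adar, where 14.6% (higher) and 15.1% (lower) of all genes had one.

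These calls depend on scaling and on single libraries. When libraries were scaled to the mean reads per window, 4 higher and 17 lower member sites passed in place of 41 and 11, and of all sites 3310 and 13843 in place of 34252 and 7603. The 4 higher sites were 1 in an intron of Ddx58, 1 at Kcnh7 near Ifih1, and 2 near Mavs. All 17 lower sites passed under that scaling, and the group means kept their direction at 59 of 59. With either DKO library left out, 0 of 59 passed the limma test, and without the first Daxx-WT library 30 passed. The SE was 0.36 at every member site, since limma shrank the spread of all sites to a common value. The direction again followed the peaks. Of 16 sites that overlapped a DKO or Daxx-WT KLS peak by 1 bp or more, some only at an edge, 12 were lower. Of 43 outside such peaks, 38 were higher. Of all listed sites, 30.2% of those that overlapped such a peak and 88.2% of those outside were higher. All 17 lower sites overlapped a peak of at least 1 of the 11 lists (96.2% of lower sites in the table) and 8 of 42 higher sites did (22.8%).

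**Figure D3:**
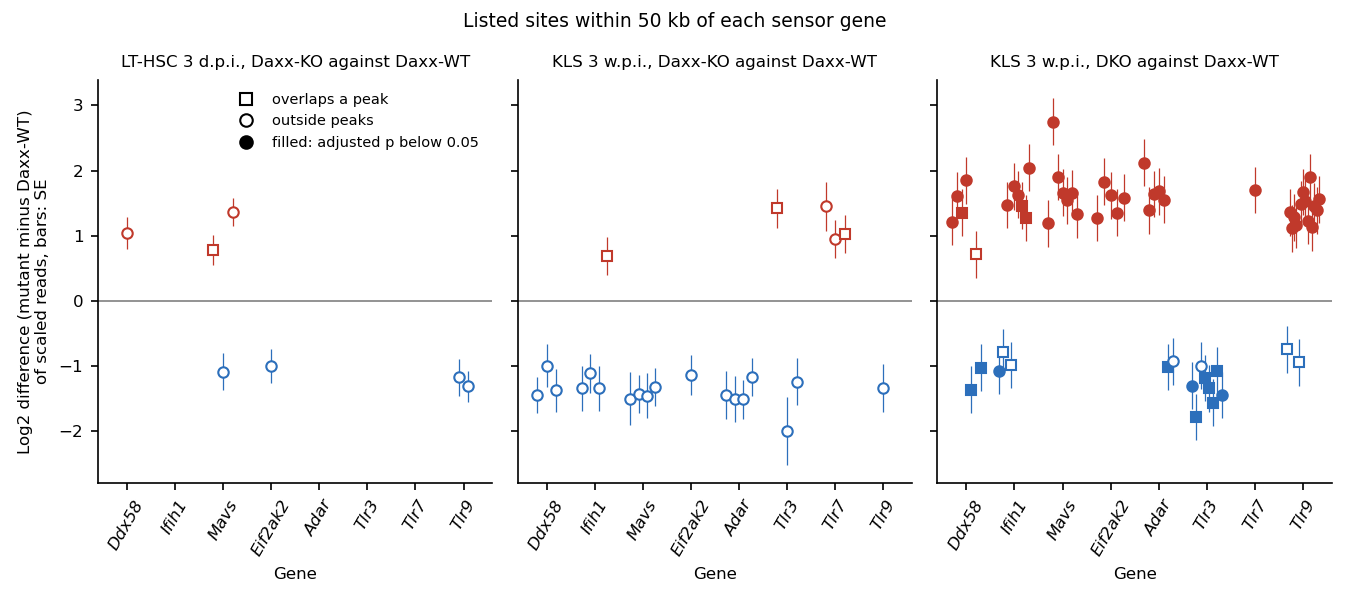
Log2 difference between mutant and Daxx-WT libraries (vertical axis, bars are the SE) of the 7, 23 and 59 listed sites near each gene, in 3 panels; squares overlap a peak, circles do not, and filled symbols passed the limma test. In the DKO panel all 8 Tlr3 sites lie below 0, and the Mavs and Eif2ak2 sites lie above 0. Values are drawn under the authors' scaling. Scaled to the mean window, which is not drawn, these sites kept their direction.

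Near Tlr3, the endosomal receptor of double-stranded RNA, all 8 sites were lower in DKO cells. They spanned its whole surroundings, from 52080 bp downstream of the first start, in Fam149a, to 43695 bp upstream. Of these, 7 passed the limma test, 8 passed when scaled to the mean window, and 5 overlapped a Daxx-WT KLS peak. Whether this differs from other genes was not tested.

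The Tlr3 site over the promoter, chr8:45409851-45410550 in the 5′ UTR, had 48.78 and 21.55 scaled reads in DKO and 70.11 and 81.16 in Daxx-WT. Both DKO libraries were below both controls, but they differed by more than the controls did. The log2 difference was -1.19 ± 0.36 (SE, n = 2 and 2; limma adjusted p = 0.012), or -1.87 when scaled to the mean window. The site next to it, chr8:45410651-45411300 in an exon at the first start, had 15.91 and 13.12 against 53.25 and 27.42 scaled reads, a log2 difference of -1.35 ± 0.36 (limma adjusted p = 0.0032).

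The largest drop at Tlr3 was at chr8:45366801-45367950, in an intron of Fam149a 43705 bp downstream, with 20.15 and 28.11 scaled reads in DKO and 73.66 and 97.61 in Daxx-WT. The DKO libraries lay close together there, below both controls. The log2 difference was -1.79 ± 0.36 (SE, n = 2 and 2; limma adjusted p = 4.6e-05). This site held a peak in the 10 other lists. The site 4145 bp upstream, chr8:45414551-45415900, had 27.57 and 35.6 against 90.52 and 99.81 scaled reads (log2 difference -1.57 ± 0.36, limma adjusted p = 0.00041). The other 4 had log2 differences from -1.45 to -1.0. Beside this, stem and progenitor markers had 4 promoter peaks in DKO and 6 in Daxx-WT KLS cells, with those of Cd34 and Ptprc missing, and the part of the cell mixture was not tested. Of the 8 sites, 3 held the interferon response core and 0 the Pu.1 sequence in the 600 bases around the centre, where 22.5% and 16.5% of all lower DKO sites held them.

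**Figure D4:**
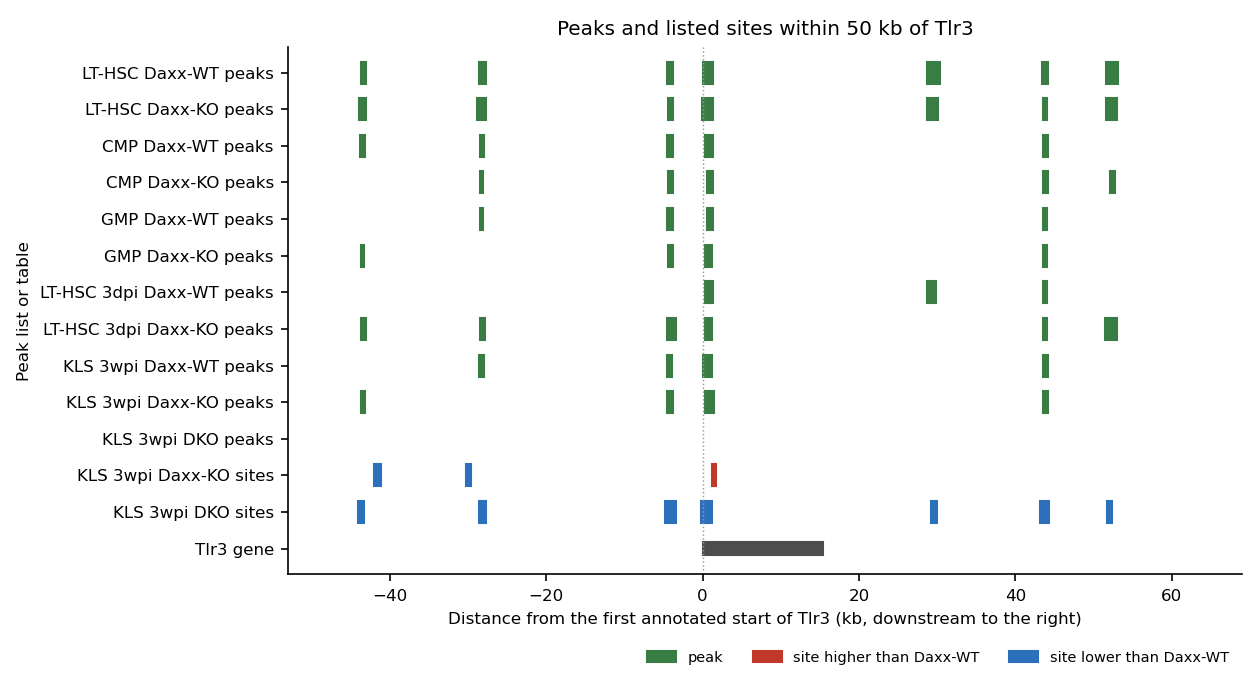
Peaks (green) of the 11 lists and listed sites (red higher, blue lower than Daxx-WT) of both KLS tables around Tlr3, by distance in kb from its first start (horizontal axis, downstream to the right). The DKO list is empty, and the 8 lower DKO sites lie at the positions of peaks in other lists.

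Mavs had 7 of 7 sites higher in DKO cells, all outside peaks. The site with the largest difference of all 59 lay in a coding exon of Cdc25b, at -39338 bp from the first Mavs start, with 24.39 and 51.53 scaled reads in DKO and 3.55 and 5.48 in Daxx-WT. Both DKO libraries were well above the controls, but far apart from each other. The log2 difference was 2.75 ± 0.36 (SE, n = 2 and 2; limma adjusted p = 5.5e-11), or 2.13 when scaled to the mean window. Within Mavs, 2 intron sites had 25.45 and 39.35 against 7.99 and 10.97, and 25.45 and 38.41 against 7.1 and 14.26 scaled reads. The promoter peak at the first start of Mavs had no listed site in any of the 3 tables.

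Eif2ak2 likewise had 5 of 5 sites higher, all outside KLS peaks. The widest, chr17:78872151-78873700 in its intron, had 77.41 and 97.43 scaled reads in DKO against 21.3 and 26.32 in Daxx-WT (log2 difference 1.83 ± 0.36, n = 2 and 2, limma adjusted p = 2.9e-05). Scaled to the mean window this was 1.15 with an adjusted p of 0.052, so the call was lost. The promoter of Eif2ak2 had no listed site.

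Ddx58 had 5 higher and 2 lower sites. At its promoter, chr4:40238751-40239600 had 133.61 and 145.21 scaled reads in DKO against 86.97 and 82.26 in Daxx-WT. The difference on the log2 scale was 0.71 ± 0.36 (SE, n = 2 and 2; limma adjusted p = 0.42), and 0.02 when scaled to the mean window. An intron site 15278 bp from the first start, chr4:40224101-40225000, had 32.87 and 52.46 against 10.65 and 10.97 scaled reads (log2 difference 1.85 ± 0.36, limma adjusted p = 2.4e-05). A Daxx-WT peak in another intron, chr4:40232751-40233850, had 20.15 and 44.03 against 78.1 and 78.97 scaled reads (log2 difference -1.37 ± 0.36, limma adjusted p = 0.0026).

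Ifih1 had 6 higher and 3 lower sites. The lower site at a start inside the gene, chr2:62639751-62640550, had 23.33 and 39.35 scaled reads in DKO against 57.68 and 64.71 in Daxx-WT. It overlapped a Daxx-WT peak that the DKO list lacked, and its log2 difference was -0.99 ± 0.36 (SE, n = 2 and 2; limma adjusted p = 0.062, and 0.005 when scaled to the mean window). The largest difference near Ifih1 was in Kcnh7, with 40.3 and 56.21 against 9.76 and 12.06 scaled reads (log2 difference 2.04 ± 0.36, limma adjusted p = 2.6e-06). The promoter with the 2 interferon response cores had no listed site.

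Adar, the RNA editor, had 5 higher and 2 lower sites. The intron site chr3:89746551-89747450, next to an annotated start, had 51.96 and 50.59 scaled reads in DKO against 21.3 and 10.97 in Daxx-WT (log2 difference 1.68 ± 0.36, n = 2 and 2, limma adjusted p = 0.00015). Both lower sites lay between genes, 81528 and 86578 bp downstream of the first start. Neither the first nor the internal start with its peaks was listed.

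Tlr9 had 13 higher and 2 lower sites. The higher ones were outside DKO and Daxx-WT KLS peaks, although the site chr9:106258001-106258650 overlapped a Daxx-KO KLS peak. Among the higher ones was a site in the coding exon of Tlr9, chr9:106223601-106224550, with 46.66 and 69.33 scaled reads in DKO against 23.07 and 26.32 in Daxx-WT (log2 difference 1.17 ± 0.36, n = 2 and 2, limma adjusted p = 0.014). The 2 lower sites, at -29423 and 7702 bp from the start, overlapped Daxx-WT peaks and had log2 differences of -0.75 and -0.95 that did not pass. Scaled to the mean window, 0 of the 13 higher sites and both lower sites passed. Tlr7 had a single site in DKO, in an intron of Prps2, with 24.39 and 41.22 against 6.21 and 13.16 scaled reads (log2 difference 1.70 ± 0.36, limma adjusted p = 0.00012).

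Daxx-KO and DKO KLS cells were set against the same 2 Daxx-WT libraries, so the tables are not independent and were scaled separately. At 3 places near the members both tables listed a site. At the 3′ UTR of Ddx58, Daxx-KO libraries had 13.36, 8.75 and 9.41 scaled reads against 23.72 and 34.39, and DKO libraries had 84.83 and 85.25 against 24.85 and 42.78. In the Gca intron near Ifih1, Daxx-KO libraries had 13.36, 11.37 and 8.47 against 21.89 and 38.97, and DKO libraries 118.77 and 109.61 against 38.16 and 57.03. Near the Tlr3 starts, Daxx-KO libraries were above the controls (27.84, 20.12 and 23.52 against 7.3 and 9.17) and DKO libraries below (48.78 and 21.55 against 70.11 and 81.16). These Tlr3 intervals, chr8:45409351-45409950 and chr8:45409851-45410550, share only an edge, so they describe largely different stretches. The difference between Daxx-KO and DKO libraries was not tested.

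**Figure D5:**
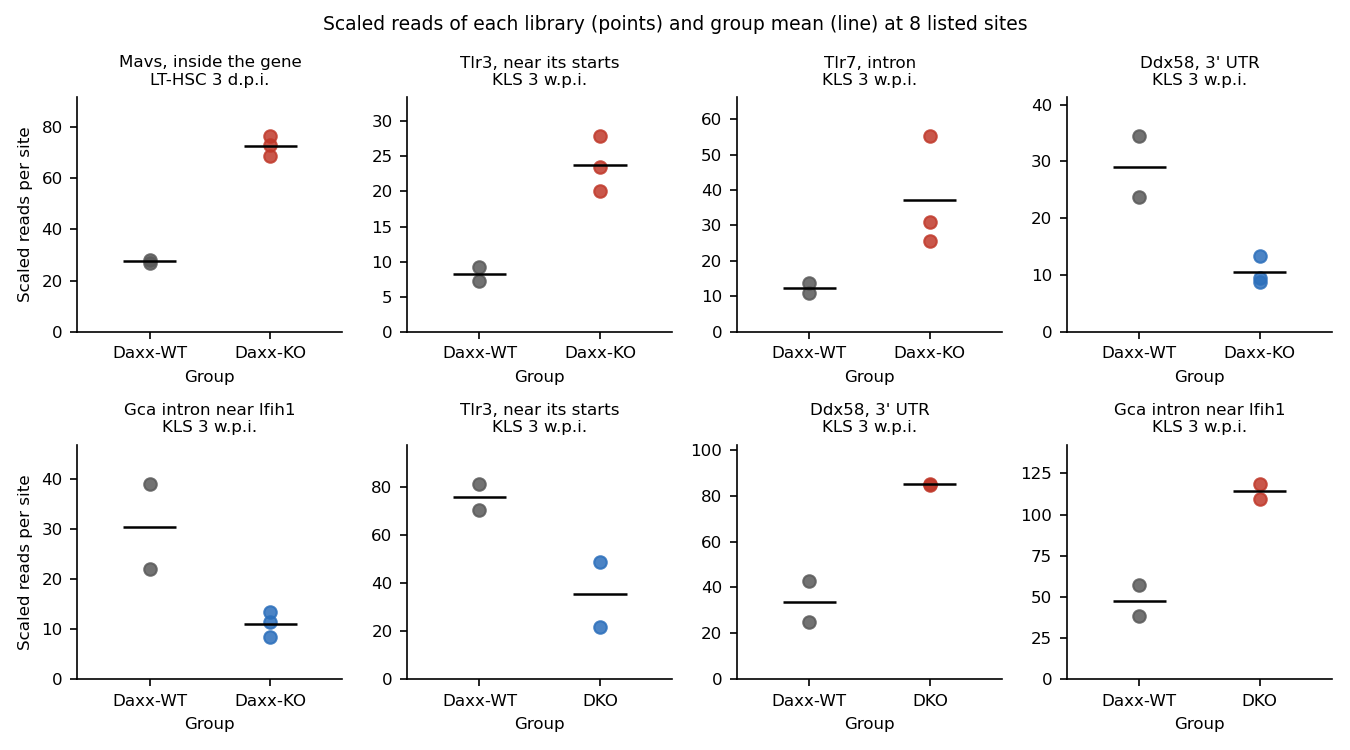
Scaled reads per site (vertical axis from 0) of each library (points) and group means (lines) at 8 listed sites, Daxx-WT in grey, mutants in red where higher and blue where lower. The Mavs site in 3dpi LT-HSCs has Daxx-KO libraries between 68.82 and 76.36 against 27.04 and 28.13, and the Ddx58 and Gca sites are lower than Daxx-WT in Daxx-KO and higher in DKO.

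The wider pathway was described by 26 genes that pass on, limit or complement these sensors. Promoter peaks were present in all 11 lists for 19 of the 26, in 23 of 26 in Daxx-WT KLS cells and in 20 of 26 in DKO cells. In 3dpi LT-HSCs, 11 of the 26 genes had a higher and 19 a lower site within 50 kb, against 25.8% and 44.4% of all protein-coding genes. The numbers were 5 and 22 for Daxx-KO KLS cells, against 21.1% and 62.1%, and 25 and 21 for DKO cells, against 72.2% and 58.5%. The limma test was passed near 0 genes in both Daxx-KO tables, and in DKO near 24 genes by a higher and near 13 by a lower site, where 71.7% and 36.5% of all genes had one. Within 1000 bp of a start, 6 genes had a site in LT-HSCs, 2 had one in Daxx-KO KLS cells and 11 had one in DKO cells. In DKO cells 5 genes had a higher and 8 a lower site there, against 14.6% and 15.1% of all genes.

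Among signalling genes, DKO cells had more reads within 1000 bp of a start of Tmem173, the adaptor of cytosolic DNA sensing. This site lay upstream of the first start and covered no start. It had 118.77 and 130.22 scaled reads against 31.06 and 37.29 (log2 difference 1.84, limma adjusted p = 2.7e-05). Traf6, a ligase in Toll-like receptor signalling, had 36.05 and 54.34 against 15.97 and 15.36, and the kinase gene Ikbke 49.84 and 72.14 against 20.41 and 25.23. Tmem173 also had a lower site, over its first start, which did not pass (132.55 and 110.55 against 206.78 and 187.55). The log2 difference there was -0.7, or -1.39 when scaled to the mean window. Traf6 likewise had a lower site, over its first start, which did not pass (64.69 and 52.46 against 97.62 and 100.91). Its log2 difference was -0.76, or -1.44 when scaled to the mean window. Zbp1, a sensor of Z-form nucleic acids, had 77.41 and 94.62 against 37.27 and 38.39. Scaled to the mean window, the log2 differences of these 4 higher sites were 1.16, 0.77, 0.69 and 0.47.

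Lower in DKO were sites within 1000 bp of starts of Irf5 (65.75 and 89.94 against 165.95 and 201.81), a transcription factor downstream of endosomal receptors, and of Aim2 (46.66 and 56.21 against 126.91 and 100.91), a DNA sensor of inflammasomes. So were those of Oas1a (28.63 and 24.36 against 47.04 and 75.68) and Oas2 (32.87 and 44.03 against 116.26 and 65.81), synthases that activate RNase L. Irf5, Aim2 and Oas1a, which shared the peak pattern of Tlr3, had log2 differences of -1.24, -1.13 and -1.15 (limma adjusted p = 0.008, 0.02 and 0.017). That pattern includes the lack of a promoter peak in DKO cells, so their lower reads are no independent support. In 3dpi LT-HSCs, Tbk1, the kinase that activates Irf3, had 104.61, 164.17 and 89.73 scaled reads against 51.83 and 39.39 near a start. Dhx58, a relative of RIG-I, had 10.09, 8.59 and 16.89 against 30.42 and 31.88. Neither passed the limma test (adjusted p = 0.3 for both).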

How the data were processed

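Tn5 libraries of sorted bone marrow cells were sequenced. The submitters' processing notes name CASAVA 1.8.4, cutadapt 1.13, STAR 2.5.3, bedtools and mm10. The authors deposited 1 peak list per group: 6 hold positions alone, with the caller not given in the sources used here, and 5 hold reproducible peaks (irreproducible discovery rate) with a score and a fold enrichment. Per the file headers, diffReps 1.55.6 made 3 tables from 600 bp windows (step 50 bp, fragment 100 bp, p below 0.0001), giving reads per library divided by a constant and their mean signal. Multiplied by that constant, 100% of values below 20 lay within 0.15 of a whole number. The authors' fold changes and p-values in these tables were not used.

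The 8 genes and all gene, marker and motif lists were chosen with earlier results of these data known. The values of 1 marker gene are not reported here. Genes came from GENCODE release M 21, and overlap was 1 bp or more. Log2(scaled reads + 1) of every listed site was fitted with limma 3.58.1 (R 4.3.3), with Benjamini-Hochberg adjustment over all windows tested (407030 to 446463), checked on simulated data. Fold changes on this scale understate those of low sites. Pathway genes with values are the 10 whose sites within 1000 bp of a start had the largest ratios of group means. Peaks were handled with Python 3.11.15, pandas 2.3.3 and pysam 0.24.0. Alternatives changed distances, pseudocount, low-value filter, scaling, adjustment, variance trend, block and libraries. Depth limits precision to counting and library spread.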

Additional observations from a re-analysis of the deposited data

How the results depend on the processing

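Peaks near the genes numbered 638 over the 11 lists, 230 within 10 kb and 1007 within 100 kb. The 7 listed sites of 3dpi LT-HSCs became 1 within 10 kb and 1 when a peak was required. In Daxx-KO KLS cells 23 became 9 and 3. In DKO cells 59 became 25 within 10 kb, 106 within 100 kb and 16 when overlap with a peak was required. Sites past the limma test rose from 0 to 7 in LT-HSCs when adjusted over the listed sites alone (95.8% of all listed sites) and to 5 with a variance trend. In Daxx-KO KLS cells they rose from 0 to 23 when adjusted over listed sites alone (96.5% of all) and to 9 with a pseudocount of 5. In DKO cells 52 became 21 when scaled to the mean reads per window, 22 within 10 kb, 91 within 100 kb, and 0 to 49 with 1 library left out. With either DKO library left out 0 passed, and the remaining one was then assumed to vary like the controls. Apart from these settings the causes were not tested. Of 824 single-site alternatives, 0 reversed direction. The groups overlapped at no listed site near the members, so most alternatives could hardly have reversed it.

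With the replicate number as a block, 1 site passed in Daxx-KO KLS cells (0 without) and 52 in DKO cells (52 without). Deviations of same-numbered libraries from their group means correlated at 0.00844 and 0.0517, and at -0.00308 in DKO. They were taken at sites selected on these same libraries. Whether same-numbered libraries share more than a number was therefore not tested. The columns of the LT-HSC table carry no numbers, and no block was fitted there. An edgeR fit on recovered reads was not run. Sites of few reads and 2 or 3 libraries per group limit what could be detected.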
